A study of Mus musculus with 16 samples.

Results

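Transcripts of 10 genes of MHC class II antigen presentation were measured in medullary thymic epithelial cells (mTEC). The genes are H2-Aa, H2-Ab1, H2-Eb1, Cd74, Ctss, H2-DMa, H2-DMb1, H2-Oa, H2-Ob and Ciita. They were picked by symbol from a list of the pathway, drawn up with earlier results of these data known, and make up 10 of the 89407 rows of the count table. The rest of the table was used for normalization, multiple-test adjustment and comparison.

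Poly(A) RNA was sequenced from 8 mice, with 1 library of mature and 1 of immature mTEC per mouse and so 16 libraries. Mature mTEC were sorted as CD45-, EpCAM+, Ly51-, UEA+ and MHCII high, and immature mTEC differed in the gate by being MHCII low. All 8 mice carried a loxP-flanked gene, Rbfox1 lox/lox in one line and Rbfox2 lox/lox in the other. The tKO mice (2 per line) were Foxn1 wildtype/cre, so that Cre was driven from the gene of a thymic epithelial transcription factor. The control mice (2 per line) were Foxn1 wildtype/wildtype and carried no Cre, so Cre itself and loss of the gene cannot be told apart. The labels give strain C57BL/6, an age of 4 to 6 weeks and 10000 sorted cells. The study's methods instead describe mice of a mixed 129S2/Sv and C57BL/6J background and sex-matched littermate controls. They also give an age of 4 weeks, and a range of cells per animal that starts at 10000. RBFOX1 and RBFOX2 are RNA-binding proteins that regulate splicing. Each line had 1 female and 1 male per genotype.

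MHC class II molecules carry peptides from the endosomal route to the surface, where CD4 T cells read them. In the thymus this display on medullary epithelium serves negative selection and the making of regulatory T cells. The α and β chains (H2-Aa with H2-Ab1, and H2-Eb1 with an Ea chain) assemble on the invariant chain CD74. Cathepsin S (Ctss) trims CD74 to a short remnant, DM (H2-DMa with H2-DMb1 or H2-DMb2) exchanges that remnant for peptide, and DO (H2-Oa with H2-Ob) restrains DM. CIITA is the transactivator that is recruited to class II promoters by factors bound to their X and Y boxes.

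Of the 10 genes, 7 lie on mouse chromosome 17 in the MHC (GRCm38). H2-Oa spans 34092340 to 34095234, H2-DMa 34119541 to 34139101, H2-DMb1 34153072 to 34160230, H2-Ob 34238903 to 34254414 and H2-Ab1 34257689 to 34269419. H2-Aa, on the minus strand, spans 34282744 to 34287823, and H2-Eb1 spans 34305867 to 34316674. Promoter windows from RefSeq (GRCm38.p6, 250 bases before to 50 after the start) matched 7 of the 10 genes, and H2-DMa had 2 windows. H2-Ab1, Ciita and Cd74 had no entry. Windows were searched on both strands for the letters CTGATTGG (Y box, in 4.10% of 32851 promoters), the CCAAT core ATTGG contained in it (37.4%) and GNNACNGAT (X box, 7.82%). The Y box letters stood in 3 of the 7 genes (H2-Aa, H2-Eb1 and H2-Oa), the core in 6 and the X box letters in 4. Stretches of 56 bases around the Y box or core are shown for the class II genes that differed in size of change, with those letters and the X box letters in capitals:

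H2-Aa: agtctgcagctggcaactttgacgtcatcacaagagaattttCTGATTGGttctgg
H2-Eb1: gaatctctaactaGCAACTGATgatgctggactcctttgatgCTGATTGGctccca
H2-Eb2: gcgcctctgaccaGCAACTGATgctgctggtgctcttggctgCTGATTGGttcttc
H2-Oa: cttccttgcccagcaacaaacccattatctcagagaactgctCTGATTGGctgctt
H2-Ob: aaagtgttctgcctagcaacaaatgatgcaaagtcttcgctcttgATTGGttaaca
H2-DMb2: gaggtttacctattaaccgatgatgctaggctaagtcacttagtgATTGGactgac

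These are chr17:34287861-34287916 (minus strand, H2-Aa), chr17:34305763-34305818 (H2-Eb1), chr17:34325530-34325585 (H2-Eb2), chr17:34092291-34092346 (H2-Oa), chr17:34238803-34238858 (H2-Ob) and chr17:34145114-34145169 (H2-DMb2), the last 5 on the plus strand. In both H2-Eb1 and H2-Eb2 the X box letters began 29 bases before the Y box. The H2-DMb1 window held the core at position -61 and the X box letters at position -94 from the start. Outside the stretches shown, the X box letters of H2-Oa stood at position -140. Those of H2-Ob stood at position 33, after the start and on the opposite strand. The first H2-DMa window and that of Ctss held none of the 3 motifs. A match is a description of the letters and not a binding site.

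Library totals were 3737884 to 4636367 counts in mature and 1506134 to 2430287 in immature mTEC. The 10 genes took 2.17% to 2.56% of all counts in each mature library and 1.31% to 1.63% in each immature library, so the ranges did not overlap. Levels are given as CPM (counts scaled to a common library size after TMM normalization), and levels of different genes are compared only as CPM per kb of merged exon. The sort was checked with Aire, the regulator of tissue-restricted genes in mature mTEC, which stood at 634 to 1568 CPM in mature and 19.5 to 298 CPM in immature mTEC. Rbfox2 had 35 and 70 counts in the 2 mature Rbfox2 tKO libraries against 247 and 231 in their controls, and 54 and 34 against 195 and 157 in immature mTEC. Rbfox1 had 33.8 and 29.5 CPM in mature Rbfox1 tKO against 52.0 and 48.0 in control libraries, and 151 and 153 against 163 and 160 in immature mTEC. The Rbfox1 difference did not pass the test in either population (edgeR quasi-likelihood, adjusted p = 0.242 in mature and 0.947 in immature mTEC). Counts per gene include exons outside the deleted part, so they check the Rbfox1 labels weakly.

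Cd74 was the most abundant protein-coding transcript per kb in all 8 mature libraries and ranked 2 in all 8 immature ones. Its level was 4993 to 6702 CPM per kb (median 5935) in mature and 3348 to 4635 (median 3855) in immature mTEC. H2-Ab1 ranked 5 to 6 and H2-Eb1 5 to 6 in mature libraries, and they ranked 12 to 15 and 14 to 23 in immature ones. H2-Aa ranked 8 to 11 in mature and 29 to 39 in immature libraries. The classical chains and the invariant chain were thus among the most abundant mRNAs of both sorted populations, the MHCII low gate included.

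The other members were far lower. In mature mTEC H2-Oa stood at 204 to 262 CPM per kb, Ctss at 169 to 227, Ciita at 57.9 to 76.1, H2-DMa at 40.1 to 49.1 and H2-Ob at 17.7 to 24.6. In immature mTEC H2-Oa stood at 58.6 to 70.1 CPM per kb, Ctss at 48.3 to 70.2, Ciita at 27.9 to 48.7, H2-DMa at 26.9 to 41.4 and H2-Ob at 3.59 to 6.37. The order of median levels was the same in both populations. Neighbours whose ranges over libraries overlapped were H2-Ab1 with H2-Eb1 and H2-Oa with Ctss in both populations. In immature mTEC Ctss with Ciita and Ciita with H2-DMa overlapped too. The ranges alone do not order these pairs. Within every immature library, however, H2-Ab1 ranked above H2-Eb1 and Ctss above Ciita. H2-DMb1 was last, with 9 to 27 counts in a mature and 5 to 11 in an immature library.

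**Figure D1:**
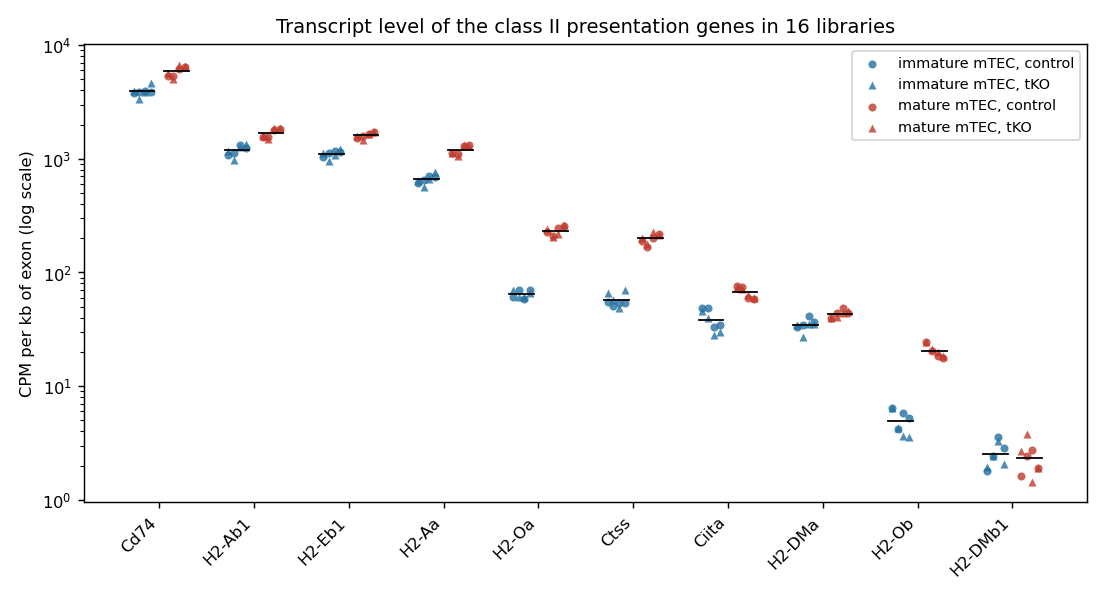
Level of each gene (CPM per kb of exon, log scale) in the 16 libraries, with circles for control and triangles for tKO mice, red for mature and blue for immature mTEC, and a black line at the mean of 8 libraries. The mature libraries lie above the immature ones without overlap except for H2-DMa and H2-DMb1, and the spacing is widest for H2-Oa, Ctss and H2-Ob.

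Mature and immature mTEC were compared to set the transcripts against the gate. Transcripts of 9 of the 10 genes were higher in mature than in immature mTEC of the 4 control mice, and the same was found in the 4 tKO mice (edgeR quasi-likelihood test, Benjamini-Hochberg adjusted p under 0.05). Of all genes tested, 36.6% were called higher and 30.1% lower in control mice, and 36.5% and 29.3% in tKO mice. All 10 passed the filter on low counts. For 8 of the 10 the lowest of the 8 mature libraries lay above the highest of the 8 immature ones. The share of all genes that separated in this way was not counted, so that count only describes these genes. The median log2 fold change of the 10 genes was 0.66 in control and 0.75 in tKO mice, beside 0.028 and 0.045 over all genes tested. Only 3 of the 10 (H2-Oa, H2-Ob and Ctss) rose more than 2-fold, in control and in tKO mice alike, beside 25.2% and 24.6% of all genes tested. Surface class II protein defined the populations, so these differences lie between cells selected on the product of some of the same genes. Fewer cells with a transcript and less transcript per cell cannot be told apart in sorted pools.

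The classical chains rose by less than 2-fold in the fits. The exception was H2-Aa with the filter of at least 10 counts in every library, at a log2 fold change of 1.02 in control and 1.02 in tKO mice. H2-Aa, the α chain of the A molecule, had 3996 to 5011 CPM (median 4571) in mature and 2138 to 2912 CPM (median 2493) in immature mTEC. The lowest mature library lay above the highest immature one, and the log2 fold change was 0.87 (SE 0.054) in control mice with edgeR adjusted p = 3.53e-09, and 0.88 (SE 0.078) in tKO mice. Its partner H2-Ab1 had 3847 to 4831 CPM (median 4341) in mature and 2521 to 3437 CPM (median 3082) in immature mTEC. This was a log2 fold change of 0.51 (SE 0.053) in control and 0.54 (SE 0.076) in tKO mice. H2-Eb1, the β chain of the E molecule, had 2849 to 3373 CPM (median 3142) against 1844 to 2350 CPM (median 2188), a log2 fold change of 0.56 (SE 0.056) in control and 0.57 (SE 0.078) in tKO mice. Within a mouse the fold was 1.70 to 2.003 for H2-Aa, 1.36 to 1.53 for H2-Ab1 and 1.39 to 1.54 for H2-Eb1. Every mouse therefore showed the rise in each classical chain, in a narrow band of folds.

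Cd74, the invariant chain gene, had 8382 to 11253 CPM (median 9965) in mature and 5620 to 7782 CPM (median 6472) in immature mTEC. The log2 fold change of Cd74 was 0.60 (SE 0.055) in control and 0.61 (SE 0.085) in tKO mice, and its fold within a mouse 1.40 to 1.74. Ctss, the protease that trims CD74, rose by more. It had 230 to 308 CPM (median 274) in mature against 65.5 to 95.3 CPM (median 74.6) in immature mTEC, a log2 fold change of 1.86 (SE 0.085) in control mice with edgeR adjusted p = 1.46e-10, and 1.77 (SE 0.11) in tKO mice. The lowest fold of Ctss in any mouse was 3.05 and the highest 4.70.

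The editors of peptide loading did not move alike. H2-DMa, the α chain of DM, had 138 to 169 CPM (median 151) in mature and 92.9 to 143 CPM (median 120) in immature mTEC. The libraries of the 2 populations overlapped, although each mouse had the higher level in mature mTEC, and the log2 fold change was 0.30 (SE 0.080) in control mice with edgeR adjusted p = 0.00388, and 0.39 (SE 0.089) in tKO mice. H2-DMb1 overlapped as well, at 2.43 to 6.32 CPM in mature and 2.998 to 5.96 CPM in immature mTEC, with a log2 fold change of -0.25 (SE 0.31) in control and 0.08 (SE 0.36) in tKO mice and edgeR adjusted p = 0.494 and 0.850. H2-DMb2, a near-identical copy that also encodes a DM β chain, had 612 to 684 CPM in mature and 268 to 355 CPM in immature mTEC. How reads were split between the 2 copies is not known, and with their counts summed the log2 fold change was 0.99 (SE 0.069) in control and 1.15 (SE 0.083) in tKO mice. H2-DMb2 was added to the text after its values were seen.

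Both DO chains rose strongly. H2-Oa had 286 to 369 CPM (median 330) in mature against 82.4 to 98.7 CPM (median 89.1) in immature mTEC, a log2 fold change of 1.86 in control mice (SE 0.088) with edgeR adjusted p = 2.08e-10, and 1.86 in tKO mice (SE 0.098). H2-Ob had 95.4 to 132 CPM (median 108) against 19.3 to 34.3 CPM (median 25.6), a log2 fold change of 1.93 (SE 0.13) in control and 2.23 (SE 0.13) in tKO mice. In both genes the lowest mature library was above the highest immature library. Folds within a mouse were 2.98 to 4.20 for H2-Oa and 3.17 to 5.46 for H2-Ob.

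Ciita, the class II transactivator, rose as well. It had 552 to 726 CPM (median 646) in mature and 266 to 464 CPM (median 353) in immature mTEC, without overlap. The log2 fold change was 0.72 (SE 0.064) in control mice with edgeR adjusted p = 1.43e-07, and 0.95 (SE 0.086) in tKO mice. Mice of the Rbfox1 line had more of it than mice of the Rbfox2 line in both populations, 682 to 726 against 552 to 610 CPM in mature and 376 to 464 against 266 to 331 CPM in immature mTEC. H2-Ab1 lay the other way, at 3847 to 4067 CPM in the Rbfox1 line and 4615 to 4831 CPM in the Rbfox2 line in mature mTEC, and at 2521 to 2995 against 3170 to 3437 CPM in immature mTEC. In mature mTEC H2-Aa (3996 to 4268 against 4874 to 5011 CPM), H2-Eb1 (2849 to 3104 against 3179 to 3373) and Cd74 (8382 to 9504 against 10426 to 11253) lay as H2-Ab1 did. In immature mTEC H2-Aa and H2-DMa did so too, while the lines overlapped for H2-Eb1 and Cd74. H2-Ob lay as Ciita did in mature mTEC, at 109 to 132 against 95.4 to 107 CPM. The share of all genes that separated by line was not counted. The lines were compared after the values were seen and no test was made. Anything else that differed between the mice of the 2 lines cannot be told apart from the line, and the tests of both lines together carry line as a covariate.

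Exons of H2-DMa share 360 bp with Brd2, those of H2-Oa 321 bp with BC051537 and those of Ciita 329 bp with Dexi, each on the opposite strand. None of the sources used here says whether strand entered the counting, so reads in those stretches cannot be assigned with certainty. BC051537 had at most 12 counts in a library and Dexi at most 178, while Brd2 had 357 to 1917 counts, more than H2-DMa with 175 to 727.

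Ratios of partner genes were formed within each library from levels per kb, so that they do not depend on scaling between libraries. They were compared over the 8 mice with an exact two-sided sign-flip permutation test, for which the smallest possible p is 0.0078. The DM to DO ratio (H2-DMa plus H2-DMb1 over H2-Oa plus H2-Ob) was 0.161 to 0.206 in mature and 0.455 to 0.698 in immature mTEC. It was lower in mature mTEC in 8 of 8 mice, with geometric means of 0.181 and 0.535 (exact p = 0.0078, adjusted 0.0195 over the 5 ratios). With H2-DMb2 added to DM the ratio was 1.64 and 3.07 and again lower in mature mTEC in 8 of 8 mice. The lower ratio in mature mTEC therefore did not rest on the H2-DMb1 row.

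The ratio of H2-Aa to H2-Ab1, the 2 chains of the A molecule, was 0.693 to 0.726 in mature and 0.522 to 0.585 in immature mTEC, higher in mature mTEC in 8 of 8 mice (exact permutation p = 0.0078, adjusted 0.0195). Mature libraries thus held more α relative to β transcript, by a factor of 1.27. H2-Oa to H2-Ob was 11.3 in mature and 13.3 in immature mTEC, lower in 6 of 8 mice and higher in 2 (exact permutation p = 0.133). Cd74 to H2-Ab1 was 3.49 and 3.29, higher in mature mTEC in 7 of 8 mice (exact permutation p = 0.0703, adjusted 0.0879), so neither of these 2 ratios passed the test. H2-DMa to H2-DMb1 was 19.0 and 13.1, higher in 7 of 8 mice (exact permutation p = 0.0234, adjusted 0.0391). It turned to 0.117 and 0.193, lower in 8 of 8 mice, once H2-DMb2 was counted as a β chain, so its direction depends on how reads were split between the copies. Without any one of 6 of the 8 mice the adjusted p of the H2-DMa to H2-DMb1 ratio was 0.0586 or 0.0781, the exceptions being the 2 Rbfox1 tKO mice.

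**Figure D2:**
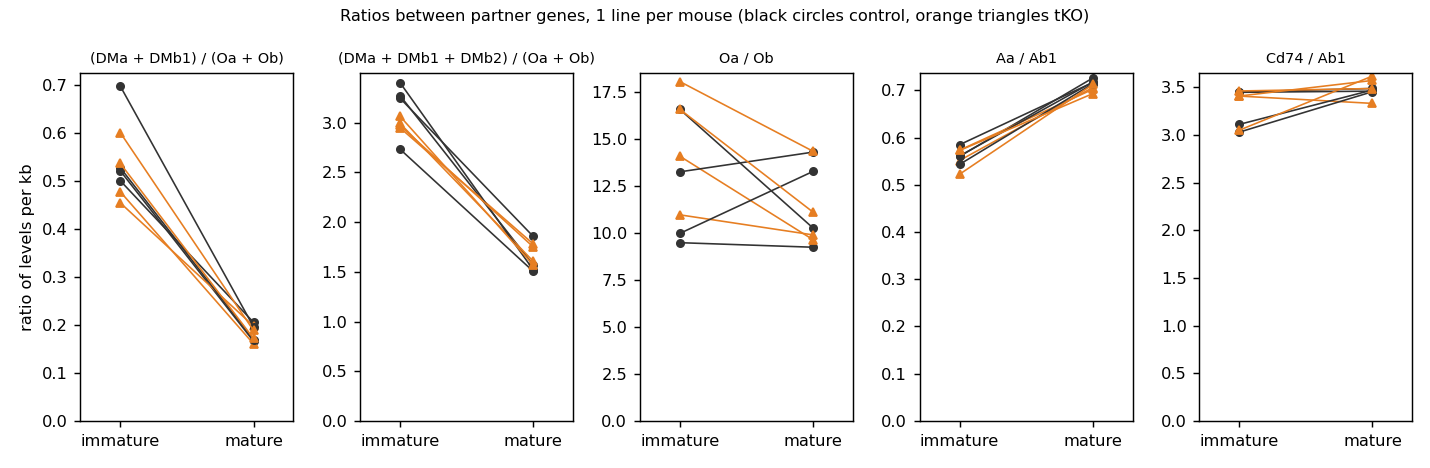
Ratios of levels per kb in immature and mature mTEC, with 1 line per mouse, black circles for control and orange triangles for tKO mice, and each axis starting at 0. Both DM to DO ratios fall in all 8 mice and H2-Aa to H2-Ab1 rises in all 8, whereas the lines of H2-Oa to H2-Ob and Cd74 to H2-Ab1 run in both directions.

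Genes around the members did not follow one direction. Of 14 regulators of class II transcription, 14 were tested in control mice, 3 were higher and 6 lower in mature mTEC, with a median log2 fold change of -0.25. Over all genes tested in control mice 36.6% were higher and 30.1% lower, so calls in both directions were common. Ifngr1, a chain of the interferon-γ receptor, stood at 143 to 236 CPM in immature and 45.4 to 52.8 CPM in mature mTEC, with -1.84 (SE 0.10) as log2 fold change in control mice. It fell without overlap between populations. Ifngr2, the other chain of that receptor, moved the other way, with a log2 fold change of 0.41 (SE 0.087) in control mice and a higher level in mature mTEC in 8 of 8 mice. Irf1, a transcription factor induced by interferon, had 0.19 (SE 0.071) in control mice, a call that was lost without any one of 3 of the 4 mice. Ifngr2 and Irf1 were named after their values were seen. In tKO mice 3 regulators were higher and 5 lower, beside 36.5% and 29.3% of all genes tested.

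Of 8 genes of endosomal processing, 6 had enough counts to be tested. In mature mTEC 5 of them were lower in control mice and all 6 in tKO mice, with median log2 fold changes of -0.47 and -0.63. The share of all genes tested that was lower was 30.1% in control and 29.3% in tKO mice. None of the 6 was called higher, unlike Ctss. Ctsl and Ifi30 were below the filter.

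Turnover and surface stability of class II are set by MARCH ligases, which ubiquitinate the β chain, and by CD83, which opposes them. March8 stood at 127 to 208 CPM in immature and 51.4 to 68.4 CPM in mature mTEC, which was a log2 fold change of -1.53 (SE 0.11) in control mice. March1 had 0 to 1 counts in an immature library and 13 to 31 in a mature one. Its log2 fold change was 5.01 (SE 0.72) in control mice with edgeR adjusted p = 2.09e-05, and 4.02 (SE 0.63) in tKO mice. With so few counts the size of that fold is uncertain. Cd83 had 2.71 to 8.80 CPM in immature and 37.5 to 48.8 CPM in mature mTEC, and its log2 fold change was 3.22 (SE 0.20). The 2 ligases thus differed in opposite directions and Cd83 was higher in all 8 mice.

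H2-Eb2, a second β-chain gene next to H2-Eb1, stood at 71.8 to 182 CPM in immature and 943 to 1083 CPM in mature mTEC. Its log2 fold change was 3.12 (SE 0.15) in control and 3.17 (SE 0.15) in tKO mice, with folds of 5.61 to 15.1 within a mouse. H2-Eb1, which carries the same 2 motifs in capitals above, changed by 0.56. H2-Ea-ps, the α-chain row that would partner H2-Eb1, had 0 counts in each immature library and 1 to 3 in each mature one. Mice of the b haplotype, C57BL/6 among them, are known to lack a functional Ea chain. H2-Ea-ps was named after its values were seen.

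The MHC class I genes H2-K1 and H2-D1 and their light chain B2m, which were also named after their values were seen, did not rise. In control mice their log2 fold changes were -0.16 (SE 0.055), -0.16 (SE 0.056) and -0.29 (SE 0.058), with edgeR adjusted p = 0.0193, 0.0168 and 0.000508. The calls of H2-K1 and H2-D1 were lost with DESeq2 (log2 fold change -0.11 and -0.12, adjusted p = 0.118 and 0.0991) and with library totals (-0.096 and -0.10, adjusted p = 0.148 and 0.130). They were also lost with DESeq2 size factors, with no filter and without either of the 2 Rbfox2 control mice. With at least 10 counts in every library all 3 calls were lost, at -0.0037 for H2-K1, -0.0087 for H2-D1 and -0.13 for B2m (edgeR adjusted p = 0.955, 0.896 and 0.0556).

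**Figure D3:**
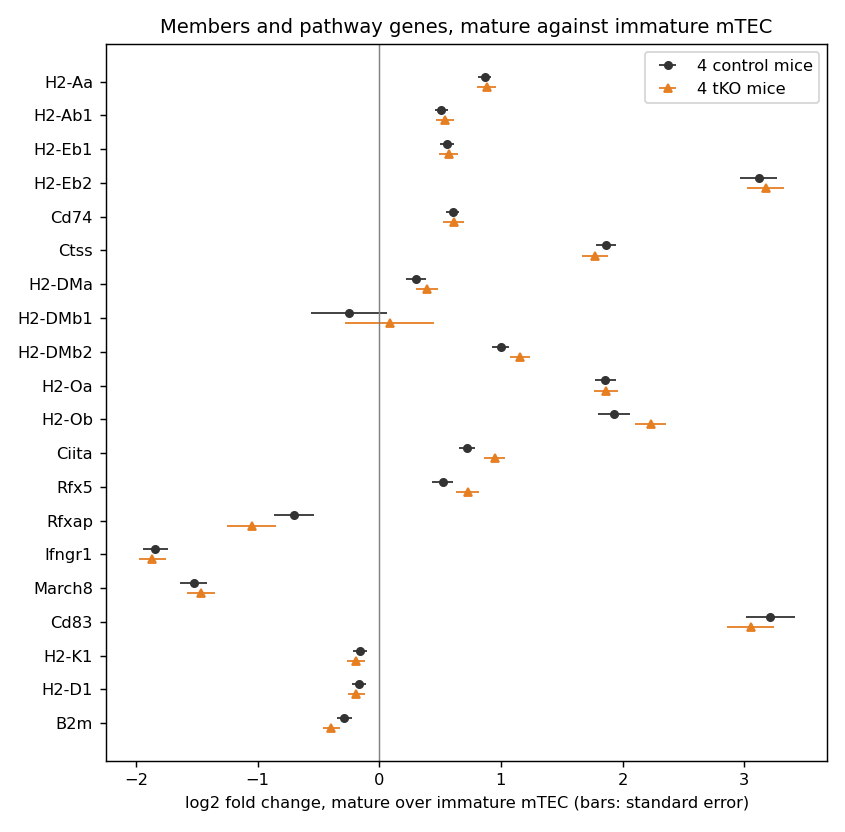
Log2 fold change of mature over immature mTEC with its standard error, in 4 control mice (black circles) and 4 tKO mice (orange triangles), for the 10 members and genes around them. The classical chains lie between 0.5 and 0.9, Ctss, H2-Oa and H2-Ob near 2, H2-Eb2 and Cd83 above 3, and Ifngr1 and March8 below -1.

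Transcripts that mark other cell types were also higher in the MHCII high libraries, although both gates took CD45- EpCAM+ cells, a sort meant to leave out dendritic cells, B cells and thymocytes. The sum of 10 dendritic cell and macrophage markers was 339 to 422 CPM in mature and 40.3 to 60.8 CPM in immature mTEC, led by Lyz2 in mature mTEC at a mean of 220 CPM, and 6 of 6 tested rose in control mice. No marker of that list was at 0 in every mature library, and Clec9a was at 0 in every immature one. The sum of 6 B cell markers was 119 to 163 CPM in mature and 19.0 to 41.6 CPM in immature mTEC, with 6 of 6 higher. The sum of 6 thymocyte and leukocyte markers was 45.2 to 57.7 and 3.43 to 23.3 CPM, with 3 of 3 tested higher. Beside these counts, 36.6% of all genes tested were called higher in control mice. Dendritic and B cells are known to express class II genes, Ctss, H2-Ob and Cd83 at high level, and mature mTEC are known to transcribe genes of many other cell types. The part of such RNA in the differences above was not tested. Between tKO and control mice the sums overlapped, at 348 to 401 against 339 to 422 CPM for the dendritic cell and macrophage list in mature mTEC.

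Of the TEC markers Epcam, Foxn1 and Krt8, 1 rose and 1 fell. In control mice the log2 fold change was 0.97 (SE 0.082) for Foxn1, -0.31 (SE 0.063) for Epcam and 0.0014 (SE 0.058) for Krt8, with edgeR adjusted p = 8.45e-08, 0.000434 and 0.985. Their sum, most of it Krt8, was 2451 to 2871 CPM in mature and 2521 to 2950 CPM in immature mTEC. Foxn1, from whose gene Cre was driven, also differed with genotype. It had 360 to 433 CPM in tKO against 248 to 263 CPM in control mice in mature mTEC. In immature mTEC it had 186 to 272 against 111 to 142 CPM. The cause was not tested. Mature mTEC markers summed to 1811 to 2842 against 265 to 754 CPM, and immature mTEC markers to 799 to 1136 against 4278 to 6291 CPM, with Ccl21a at 0 in every mature library. The 4 cTEC markers summed to 135 to 172 and 135 to 187 CPM.

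The second question was whether loss of Rbfox1 or Rbfox2 in thymic epithelium changed these genes. None of the 10 was called in any of 6 comparisons of tKO with control mice (edgeR quasi-likelihood, Benjamini-Hochberg over all genes). DESeq2 also called none of them. The comparison over both lines uses the same mice as those within a line. Few genes were called at all: 0.0345% of genes tested in mature and 0.103% in immature mTEC over both lines, 0.0222% and 0.0383% in the Rbfox1 line, and 0.0555% and 0.0919% in the Rbfox2 line, for mature and immature mTEC in turn. In neither population did the 4 tKO libraries of any member lie wholly above or below the 4 control libraries. The share of all genes that did so was not counted. Each line held tKO and control mice, so a member whose lines did not overlap could not separate by genotype in this way. In mature mTEC this held for Ciita, H2-Aa, H2-Ab1, H2-Eb1, Cd74 and H2-Ob. In immature mTEC it held for Ciita, H2-Aa, H2-Ab1 and H2-DMa. For these genes the overlap was fixed in advance and says nothing about genotype.

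For the most abundant members the differences were small. Over both lines the largest absolute log2 fold change among H2-Aa, H2-Ab1, H2-Eb1 and Cd74 was 0.032 in mature and 0.038 in immature mTEC, with standard errors of 0.049 to 0.052 and 0.062 to 0.069. Within a line it was 0.041 (Rbfox1) and 0.075 (Rbfox2) in mature mTEC, and 0.070 and 0.14 in immature mTEC. Each of these values was within 2 standard errors of 0. Among all members in mature mTEC over both lines, log2 fold changes ran from -0.06 (H2-DMa, SE 0.066) to 0.17 (H2-DMb1, SE 0.30). In immature mTEC they ran from -0.24 (H2-Ob, SE 0.19) to 0.19 (Ctss, SE 0.11) over 9 members, since H2-DMb1 had too few counts there.

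Ciita in immature mTEC had the smallest p among the members. Its levels were 436 and 376 CPM in the Rbfox1 tKO libraries against 462 and 464 in their controls, and 266 and 283 CPM in the Rbfox2 tKO libraries against 319 and 331. Each tKO library was below both controls of its line. The 4 tKO and 4 control libraries overlapped, which was fixed in advance because the lines did not overlap. The log2 fold change over both lines was -0.21 (SE 0.069), which reached an unadjusted edgeR p of 0.00828 and an adjusted p of 0.471. Of all genes tested, 7.48% had an unadjusted p under 0.05 in this comparison. In mature mTEC Ciita differed by 0.01 (SE 0.056).

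H2-Ob in immature mTEC of the Rbfox2 line stood at 19.5 and 19.3 CPM in tKO and 31.4 and 28.2 CPM in control libraries, from 28 counts in each tKO library and 58 and 47 in the controls. The log2 fold change was -0.60 (SE 0.28), with edgeR adjusted p = 0.786. In the Rbfox1 line the tKO libraries had 34.3 and 23.0 CPM and the controls 34.3 and 22.5 CPM, a log2 fold change of 0.02 (SE 0.24). The lower level in the Rbfox2 line was therefore not past the threshold, and the difference between the lines was not tested.

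**Figure D4:**
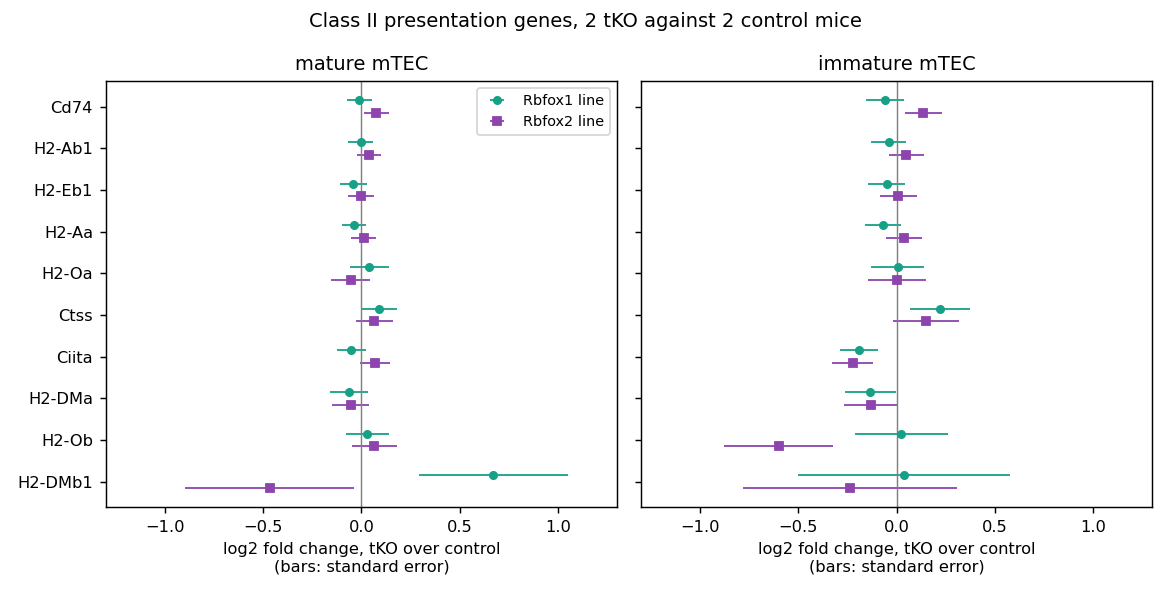
Log2 fold change of tKO over control with its standard error for the 10 genes, in mature mTEC (left) and immature mTEC (right), with green circles for the Rbfox1 and purple squares for the Rbfox2 line. Most points lie within 0.25 of 0, and H2-DMb1 and H2-Ob, the members with the fewest counts, have the widest bars.

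The interaction of population and genotype asked whether the step from immature to mature mTEC differed between tKO and control mice. None of the 10 members was called, and 0% of the 17442 genes tested were. The largest absolute value among H2-Aa, H2-Ab1, H2-Eb1 and Cd74 was 0.022 on the log2 scale (SE 0.081 to 0.090), so their rise in tKO and in control mice differed by less than the error. Ciita had the smallest p among the members, with an interaction of 0.22 (SE 0.088) and an edgeR adjusted p = 0.914. It was the only member with an unadjusted p under 0.05, as 5.20% of all genes tested had. DESeq2 called none of the members either. In the remaining list of 28 regulators, processing, turnover and other class II genes, none of those tested was called in any tKO comparison. Between tKO and control mice all 14 regulators, 6 of 8 processing and 2 of 3 other class II genes were tested. Of the 3 turnover genes, 3 were tested in mature and 2 in immature mTEC. Of all genes tested, 0.0222% to 0.103% were called between tKO and control mice.

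Genes with the closest pattern to the classical chains were sought by the correlation of log2 CPM over the 16 libraries, among 11268 genes with a mean of at least 10 CPM. For the mean of H2-Aa, H2-Ab1, H2-Eb1 and Cd74 they were Ndufc2, Dpp3, M6pr, Surf4 and Rnaset2a, and for Ciita they were Kndc1, Wnk2, Micall1, Slc4a8 and Cttnbp2nl. No gene stood in both lists. The libraries fall into the 2 populations, so likeness mostly reflects the step between them. After the mean of each population was subtracted the lists included Arf1, Atp5o, Eif3f and Cdc42 for the classical chains, and Khnyn, Zfp235, Ckap5, Wnk2 and Kndc1 for Ciita. Wnk2 and Kndc1 were the only genes to stay in a list.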

How the data were processed

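Counts of reads per gene, not normalized, were deposited by the authors in 1 table for all 16 libraries. Per the labels and methods, libraries were stranded and poly(A)-selected. Duplicates were removed and libraries down-sampled (14500000 and 10000000 in the column names of mature and immature mTEC), so totals partly reflect that step. The labels name HISAT2 2.1.0, Picard 2.10.9, featureCounts 1.6.0 and build mm10. Symbols, positions and exon lengths came from GENCODE M21 (GRCm38).

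The quasi-likelihood test of edgeR 4.0.16 (R 4.3.3) was run on the counts (TMM, filterByExpr at a minimum count of 10, Benjamini-Hochberg over all genes tested, threshold 0.05). Mature and immature mTEC were compared in 4 control and in 4 tKO mice, and tKO with control mice within each population, in each line (2 against 2) and over both lines with line as a covariate. Ratios used counts plus 0.5 per kb of exon. Replicates were separate mice, and their libraries differed by more than counting noise (chi-square per degree of freedom 1.78 to 2.74). Mature and immature libraries of a number come from the same mouse, and their deviations correlated by 0.181 to 0.307. DESeq2 1.42.0, other scalings and filters, the replicate block, 1 fit of all libraries and leaving out each mouse were alternatives. Summing H2-DMb1 and H2-DMb2 was added after the data were seen. Scripts were tested on simulated counts.

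The 10 genes, the gene lists and the marker lists were chosen with earlier results of these data known. Named were the 10 members, listed pathway genes called with an absolute log2 fold change over 1 in control mice, and genes of most similar pattern. Some genes that the rule names are not reported here. Proteins and Cd74, Ciita and H2-Ab1 promoters were not analysed here.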

Additional observations from a re-analysis of the deposited data

Results flagged for a closer look

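In immature mTEC of tKO mice, H2-DMa stood at 92.9 CPM in Rbfox1 tKO replicate 3 and at 119 to 122 CPM in the other 3 mice. The gap to the nearest library was 0.899 of the whole range, above Dixon's critical value for 4 samples. It was the only such library in 40 groups of 4 (10 genes, 2 populations, control and tKO), of which chance flags about 1 in 20.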

How the results depend on the processing

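The count of members called higher in mature mTEC (9 in control and 9 in tKO mice) and the count of 0 in each tKO comparison and the interaction held under DESeq2, other scalings, other filters, the replicate block (9, 9 and 0 again), 1 fit of all libraries and without each mouse. With H2-DMb1 and H2-DMb2 summed, all 10 were called and H2-DMb1 turned to 0.99 in control mice (main value -0.25). In a line, the tKO mouse and the control mouse of one number share their sex, and the methods give sex-matched littermates without saying which mice were paired. Their deviations correlated by 0.094 to 0.324, and a block of these pairs changed no call of a member. The fold changes that changed sign in other ways were not called in either setting. H2-DMb1 in tKO mice (0.08) was -0.039 in 1 fit of all libraries and -0.20 to 0.43 without each mouse, with -0.11 without Rbfox1 tKO replicate 2. H2-DMb1 over both lines in mature mTEC (0.17) was -0.050 without Rbfox1 control replicate 2 and -0.068 without Rbfox1 tKO replicate 3. H2-DMa in mature mTEC of the Rbfox1 line (-0.06) was 0.0070 without Rbfox1 control replicate 3, and -0.13 to 0.0070 without each mouse. Ctss in immature mTEC of the Rbfox2 line (0.15) was -0.14, and its interaction (-0.10) 0.069, without Rbfox2 tKO replicate 2. Without each mouse these 2 ran from -0.14 to 0.40 and from -0.24 to 0.069. The H2-DMa to H2-DMb1 log2 ratio, which passed its test at 0.54, was -0.72 with H2-DMb2 added, and 0.40 to 0.64 without each mouse. The Cd74 to H2-Ab1 log2 ratio (0.082) was 0.059 to 0.099 without each mouse and passed at 0.099 (adjusted exact permutation p = 0.0260) without Rbfox1 tKO replicate 3. The causes were not tested. Among the other pathway genes, 19 of 25 tested were called in control mice and 19 in tKO mice, and 16 to 21 and 14 to 19 under the alternatives. Calls were also common over all genes tested, at 36.6% higher and 30.1% lower in control mice. In tKO mice these shares were 36.5% and 29.3%. Immature libraries had fewer counts, so H2-DMb1 and H2-Ob are the least certain members there.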
